A study of Homo sapiens with 6 samples.

Results

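GABRA5 and GABRG3 encode the alpha5 and gamma3 subunits of the GABA-A receptor and lie in tandem in the receptor gene cluster of chromosome band 15q12. They are 2 of the 57773 genes of a count table from polyA RNA-seq of HAP1 cells, a near-haploid adherent human line that descends from a chronic myeloid leukaemia line. The wild-type group (n = 3 libraries) carried the genotype given as wild type, and the mutant group (n = 3 libraries) carried the CTCF substitutions Y226A and F228A, made by Cas9 cutting and an oligonucleotide repair template, in clones picked after puromycin. Both groups grew in the same medium. The labels do not say whether the mutant libraries came from 1 clone or several. All mutant columns share the same number in their names, and its meaning is not given. The substitutions and the state of a clone therefore cannot be told apart. P-values cover only how far these 6 libraries differed, which may be technical. Members were taken by gene symbol, and they were chosen by their counts in the wild-type and mutant libraries. That difference is therefore described here without a test.

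GABA-A receptors are ligand-gated chloride channels of the Cys-loop family, and most of those in the brain combine alpha, beta and gamma subunits in 1 pentamer around the pore. The alpha and beta subunits form the GABA binding sites, the gamma subunit is needed for the benzodiazepine site and for synaptic clustering, and receptors with alpha5 are best known from the hippocampus, where many lie outside synapses. The subunit genes sit in clusters on several chromosomes, and GABRA5 and GABRG3 belong to the cluster at 15q12. It lies beside the imprinted domain of Prader-Willi and Angelman syndromes. CTCF, the mutated protein, binds insulators and stalls cohesin at the anchors of chromatin loops.

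On GRCh38 (GENCODE v29), GABRA5 (ENSG00000186297.7) spans chr15:26866363-26949207 and GABRG3 (ENSG00000182256.8) chr15:26971282-27541991, both on the plus strand. The exons of GABRA5 (4154 bases in all) share 0 bases with those of other genes on either strand, and those of GABRG3 (12595 bases) share 1100 with 1 overlapping annotated gene. The counts were made on hg19, and these positions serve only to locate the genes. Of 4280 words of 50 bases in the GABRA5 transcripts, 0 occur in a transcript of another gene on either strand. For GABRG3 the share was 8.85%, nearly all of it with the overlapping gene (1007 of 1110 words). Whether the counting used the strand is not given in the sources used here.

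GABRG3, barely detected in either genotype, was the only member matched in a RefSeq promoter table (GRCh38.p14). Its 250 bases before the start, chr15:26970931-26971180 on the plus strand, are shown. Capitals mark CpG dinucleotides.
GABRG3 promoter: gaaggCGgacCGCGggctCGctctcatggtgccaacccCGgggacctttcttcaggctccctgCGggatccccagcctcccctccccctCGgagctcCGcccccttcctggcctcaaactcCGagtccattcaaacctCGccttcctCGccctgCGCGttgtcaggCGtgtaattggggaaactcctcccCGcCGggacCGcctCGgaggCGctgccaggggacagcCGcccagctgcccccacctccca
It holds 20 CpG, and 32.4% of 35116 promoters hold as many or more in the same stretch (median 11).

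GABRA5 was expressed in every wild-type library and was not detected in any mutant library. Wild-type replicates 1, 2 and 3 held 103, 85 and 96 counts, and mutant replicates 1, 2 and 3 held 0, 0 and 0. The 3 wild-type libraries lay close together and the groups did not overlap. Scaled to library size with TMM factors, the wild-type level was 11.2 ± 0.776 CPM (counts relative to the library total, mean ± SD, n = 3). At that level the mutant libraries would have given 98, 86 and 106 counts. A count of 0 allows up to 3 counts, or 0.317 to 0.389 CPM in a single mutant library. With 284 counts against 0, and 3 counts over the mutant libraries as the floor, GABRA5 was at least 96.6-fold lower in the mutant (at least 61.3-fold when any 1 mutant library was left out, since fewer libraries raise the floor). Fewer cells with the transcript and less of it per cell cannot be told apart in bulk RNA.

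**Figure D1:**
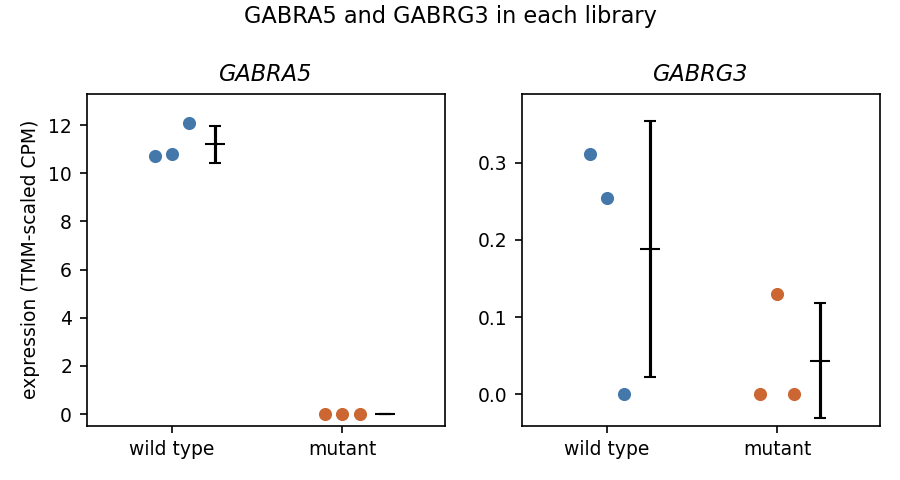
Expression of GABRA5 and GABRG3 in TMM-scaled CPM, with 1 point per library and the mean ± SD of 3 libraries as a bar beside the points. GABRA5 is near 11 CPM in the wild type and at 0 in the mutant, and GABRG3 stays under 0.4 CPM in both groups.

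Of the 2 members, GABRA5 passed the low-count filter and GABRG3 did not. GABRA5 was among the genes lower in the mutant at an edgeR adjusted p under 0.05, which were 9.26% of 14835 tested genes (21.2% were called in either direction). Its selection used the same contrast, and nothing is read from that call. In the authors' deposited table GABRA5 has a log2 fold change of -9.04 with a standard error of 1.20 and is 1 of 40 genes carrying a mark whose meaning is not given. In the same authors' deposited table GABRG3 has -2.21 with a standard error of 2.01 and no mark.

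GABRG3 was at the edge of detection in both genotypes. The wild-type libraries held 3, 2 and 0 counts and the mutant libraries 0, 1 and 0. Wild-type replicate 3 and 2 of the mutant libraries were alike at 0, so the groups overlapped. The 5 wild-type counts against 1 mutant count gave a ratio of 5.10 with a 95% counting interval (exact Clopper-Pearson) of 0.571 to 241, given as a description. Its antisense gene GABRG3-AS1 was at 0 counts in all 6 libraries.

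The scale of GABRG3 is clearest per length. In CPM per kilobase of annotated exons, the wild-type level was 2.70 ± 0.187 for GABRA5 and 0.0150 ± 0.0132 for GABRG3 (n = 3). GABRA5 stood above 26.9% of 14663 tested genes with a known length on this scale.

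Of 16 GABA-A receptor genes reported here, 9 had at least 1 count, 7 had 0 counts in all libraries and 3 were tested. Besides GABRA5, GABRQ fell and GABRD was not called. A count of 1 in 2 genes is too small to set apart from the 9.26% of all tested genes that fell. GABRQ, the theta subunit gene on chromosome X, had 9.45, 9.79 and 7.18 CPM in the wild type, against 5.37, 5.05 and 4.22 CPM in the mutant. All mutant libraries were lower, a fall of 0.86 on the log2 scale (SE 0.179, edgeR adjusted p = 0.00127). GABRD, the delta subunit gene of extrasynaptic receptors, had 1.41 ± 0.627 and 2.01 ± 0.727 CPM, and its groups overlapped (log2 0.47, SE 0.357, edgeR adjusted p = 0.387).

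GABRA5 was the only alpha subunit gene of those reported here with any count. GABRA2, GABRA3, GABRA4 and GABRA6, the others, had 0 counts in all 6 libraries. GABRB2 had 2, 3 and 2 counts in the wild-type libraries and 0 in each mutant library. Its ratio was 2.38 against the same floor, which leaves out the counting error of the 7 wild-type counts. GABRB1 had 3 and 4 counts over the groups. GABRG1 had 1 wild-type count and 0 mutant counts. GABRR2 had 2 counts in each group, GABRR3 had 1 mutant count, and GABRR1, the epsilon gene GABRE and the pi gene GABRP had 0. Subunit genes other than GABRA5, GABRQ and GABRD were thus at or near the limit of detection in both genotypes, as far as they are reported here.

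Per length, the order of the reported subunit genes in the wild type was GABRA5 (2.70 ± 0.187 CPM per kilobase), GABRQ (1.43 ± 0.230) and GABRD (0.254 ± 0.113), and these 3 did not overlap between libraries. The next levels, GABRB1, GABRR2, GABRB2 and GABRG3, were 0.0404, 0.0344, 0.0280 and 0.0150, and their SDs overlapped. In the mutant the order was GABRQ (0.791 ± 0.0960) and GABRD (0.362 ± 0.131), with GABRA5 out of the order.

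Among genes on either side of the cluster, HERC2 rose and ATP10A and OCA2 were not called. ATP10A, a phospholipid flippase gene, had 30.3 ± 0.770 and 34.05 ± 1.49 CPM (log2 difference 0.17, SE 0.0858, edgeR adjusted p = 0.176). OCA2, a melanosome transporter gene, had 2.92 ± 0.890 and 2.65 ± 0.176 CPM with overlapping libraries (log2 -0.16, SE 0.261, edgeR adjusted p = 0.721). HERC2, a ubiquitin ligase gene, had 77.5, 75.2 and 82.9 CPM in the wild type, against 98.7, 129 and 114 CPM in the mutant. All its mutant libraries were higher (log2 0.53, SE 0.0802, edgeR adjusted p = 4.68e-05). HERC2 has copies along the same chromosome arm, and 17.7% of its 50-base words occur in other genes, so its counts are uncertain.

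A wider list of 39 genes of 15q11-q13 was matched for 34, and 20 were tested. Without GABRA5, 4 of 19 rose, 1 fell and 14 were not called, with a median log2 difference of 0.04. Over all tested genes 11.9% rose and 9.26% fell, and on chromosome 15 as a whole 82 of 507 rose and 34 fell. UBE3A, the ubiquitin ligase gene of Angelman syndrome, rose most clearly, from 204, 217 and 205 CPM to 280, 300 and 297 CPM. The groups were well apart (log2 0.49, SE 0.0515, edgeR adjusted p = 3.23e-07). MTMR10, a myotubularin-related gene, rose by 0.37 (SE 0.0913, edgeR adjusted p = 0.00478), and 16.2% of its 50-base words occur in its overlapping neighbour FAN1. ARHGAP11A, a GTPase-activating protein gene with a partial copy nearby, rose by 0.19 (SE 0.0600, edgeR adjusted p = 0.0246). Of its 50-base words 23.3% occur in other genes, so its counts are uncertain. The groups of ARHGAP11A overlapped, and DESeq2 did not call it (adjusted p = 0.0644), nor did edgeR in 4 of 6 fits without 1 library (range over all alternatives 0.00173 to 0.17).

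MKRN3, a zinc-finger gene of the imprinted domain expressed from the paternal copy, was the other gene of this list that fell. Its counts were 19, 15 and 17 in the wild type, against 2, 0 and 0 in the mutant. The mutant libraries were all lower, at a ratio of 26.0 (95% counting interval 6.84 to 221, edgeR adjusted p = 1.29e-05). The fitted log2 difference was -4.46, and -7.11 without mutant replicate 1, the only mutant library with counts. The other paternally expressed genes of the domain, MAGEL2, NDN, NPAP1, SNURF, SNRPN and SNHG14, were listed at 0 in all 6 libraries. SNURF lies inside the span of SNRPN, and SNRPN overlaps SNHG14 only at the end of its span. Reads that fall in several genes were set apart in the table (1.70 to 1.79% of the count table total). For that reason the 0 of SNURF and SNRPN is uncertain. Whether gene overlap removed reads of SNHG14 or NDN was not tested.

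The remaining tested genes of the list were not called. NIPA1, NIPA2, CYFIP1 and TUBGCP5, at the proximal end of the list, had log2 differences of -0.04, -0.09, -0.02 and -0.02. Distal to HERC2, values were 0.08 for APBA2, 0.04 for NDNL2, -0.04 for TJP1, -0.10 for ARHGAP11B, -0.15 for FAN1 and 0.09 for KLF13. OTUD7A and CHRNA7 had 0.41 and 0.60 with SEs of 0.214 and 0.376. FAM189A1, SCG5, TRPM1 and GREM1 had at most 14 counts in a group and were not tested. PWRN1 and PWRN2 were at 0.

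**Figure D2:**
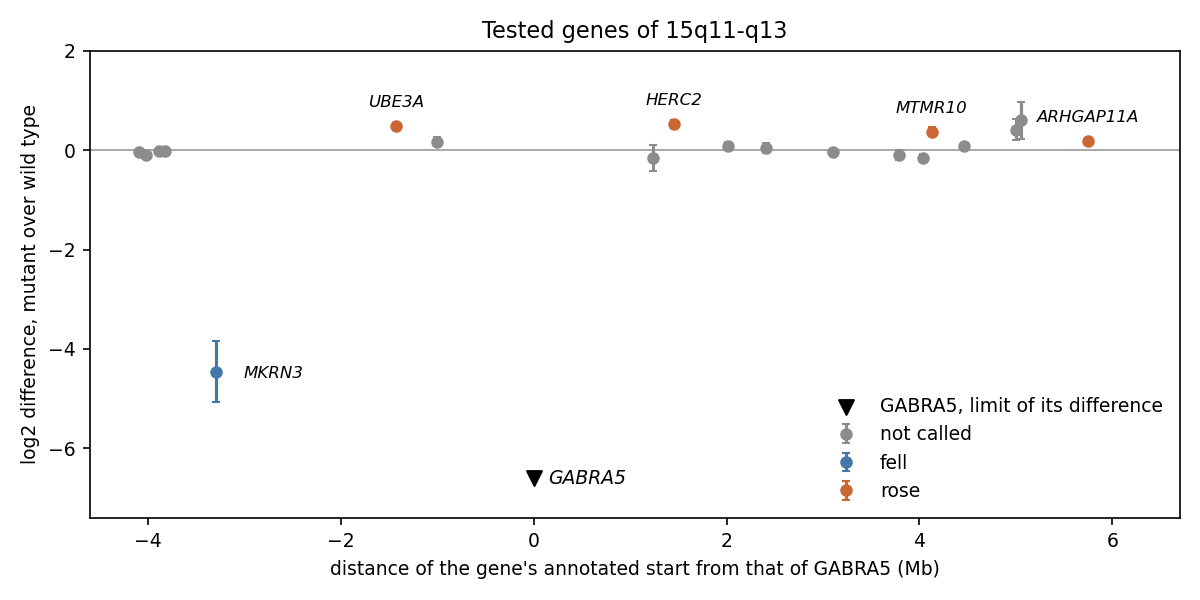
Log2 difference of mutant over wild type for the tested genes of 15q11-q13, placed by the distance of each annotated gene start from that of GABRA5 in megabases. Bars are standard errors of the fit, colours give the edgeR call, and the triangle is the limit for GABRA5 (-6.59, from at least 96.6-fold lower). GABRA5 and MKRN3 lie far below 0, and the other genes lie near it.

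Of 25 listed genes that assemble, anchor or carry GABA-A receptors 19 were tested, 1 rose, 3 fell and 15 were not called, with a median log2 difference of 0.03. Over all tested genes 21.2% were called, so the count is near the background and is no result about this list. GPHN, the gene of the inhibitory synapse scaffold gephyrin, was not called (log2 0.15, SE 0.0893, edgeR adjusted p = 0.269). SLITRK3, a postsynaptic adhesion protein gene of inhibitory synapses, fell from 7.03 ± 1.29 to 4.13 ± 0.739 CPM (edgeR adjusted p = 0.00684, and 0.0595 without wild-type replicate 1). The ubiquitin-like protein gene UBQLN1 and the kinesin gene KIF5C fell by 0.15 and 0.16 on the log2 scale, and the kinesin adaptor gene TRAK2 rose by 0.22. These 3 calls were lost in 5, 5 and 4 of 6 fits without 1 library, with adjusted p up to 0.0854, 0.164 and 0.135. DESeq2 did not call KIF5C or TRAK2 (adjusted p = 0.0856 and 0.0892). GABARAP, GABARAPL1 and GABARAPL2, the receptor-associated protein genes, had log2 differences of 0.02, 0.12 and -0.10 and were not called.

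Of 14 genes for GABA synthesis, transport and breakdown, 7 were tested, 2 rose and 5 were not called (median log2 difference 0.08), where 11.9% of all tested genes rose and 9.26% fell. ALDH5A1, which encodes succinic semialdehyde dehydrogenase, the last step of GABA breakdown, rose from 42.5 ± 3.92 to 57.3 ± 2.08 CPM (log2 difference 0.44, SE 0.0806, edgeR adjusted p = 3.75e-04). ABAT, the GABA transaminase gene of the step before, had 10.99 ± 0.487 and 10.99 ± 0.513 CPM. The glutamine carrier gene SLC38A1 rose by 0.19, and the call was lost without mutant replicate 3 (edgeR adjusted p = 0.00817 and 0.0823). GAD1, the glutamate decarboxylase gene, was not called (log2 0.59, SE 0.248, edgeR adjusted p = 0.0987, and 0.0376 without mutant replicate 3), and GAD2 had 0 counts.

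Of 16 genes of GABA-B receptors and of chloride balance, 12 were tested, 3 rose, 2 fell and 7 were not called (median log2 difference 0.00), beside 11.9% and 9.26% of all tested genes. Of the GABA-B subunit genes, GABBR1 was listed at 0 and GABBR2 at 2 and 4 counts. Whether gene overlap or the strand setting of the counting removed reads of GABBR1 was not tested. KCTD12, an auxiliary GABA-B subunit gene, fell from 31.0 ± 1.31 to 21.4 ± 2.62 CPM (log2 difference -0.54, SE 0.102, edgeR adjusted p = 5.22e-04). KCTD8, another auxiliary GABA-B subunit gene, had 16, 8 and 8 counts in the wild-type libraries and 0, 1 and 2 in the mutant libraries, without overlap. It did not pass the low-count filter, and without the filter 3 genes of the list fell. The chloride importer gene SLC12A2 was not called (log2 -0.04, SE 0.0806), and the neuronal exporter gene SLC12A5 had 2.11 ± 1.08 and 1.41 ± 0.218 CPM and was not called. The kinase genes WNK1 and STK39 and the chloride channel gene CLCN3 rose by 0.18, 0.30 and 0.21, and the kinase gene WNK3 fell by 0.32 on the log2 scale. Each of these 4 calls was lost in at least 1 fit without a library, with adjusted p up to 0.171, 0.06, 0.109 and 0.111. Under 10 alternatives the calls of WNK1, STK39, CLCN3 and WNK3 held in 5, 9, 7 and 4. DESeq2 did not call WNK1 or WNK3 (adjusted p = 0.0503 and 0.0775). Among 27 other Cys-loop receptor genes 6 were tested, 1 fell and 5 were not called, a count too small to set apart from the 9.26% of all tested genes that fell. The nicotinic subunit gene CHRNA5 fell, with 45.4 ± 3.22 CPM in the wild type, against 36.75 ± 0.978 in the mutant (edgeR adjusted p = 0.0110, and 0.0657 without wild-type replicate 3), and the glycine receptor gene GLRB was not called (log2 0.24, SE 0.147, edgeR adjusted p = 0.282).

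Among 43 genes with 0 counts in all mutant libraries and 10 or more counts on average in the wild-type libraries, GABRA5 had the highest wild-type sum. It was the only one of the 43 on chromosome 15, which holds 507 of the 14835 tested genes, so a single gene there is not unusual. The genes with the most similar levels over the 6 libraries, by root mean square difference of log2(CPM + 0.5), were LINC02582 (0.0560), ZNF729 (0.158), ZNF676 (0.184), ZNF43 (0.184) and ZNF486 (0.211). LINC02582 is a noncoding gene of chromosome 18, and the other 4 are zinc-finger genes of chromosome 19. All 5 had 0 mutant counts, with 273, 242, 244, 241 and 231 wild-type counts. The distance includes the mutant libraries, so their 0 largely follows from how they were picked and is no result. For GABRG3 the closest tested genes were SYBU (1.09), ZNF430 (1.13), LINC01082 (1.16), RAB36 (1.16) and ZNF667 (1.16). These distances are larger than for GABRA5, and GABRG3 has counts too low to rank neighbours well. Only genes that passed the low-count filter were searched, so genes as low as GABRG3 in both groups were left out. The 5 genes had wild-type means of 1.36 to 1.57 CPM, against 0.189 CPM for GABRG3. Their lower mutant levels partly follow from how they were picked and are no result.

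**Figure D3:**
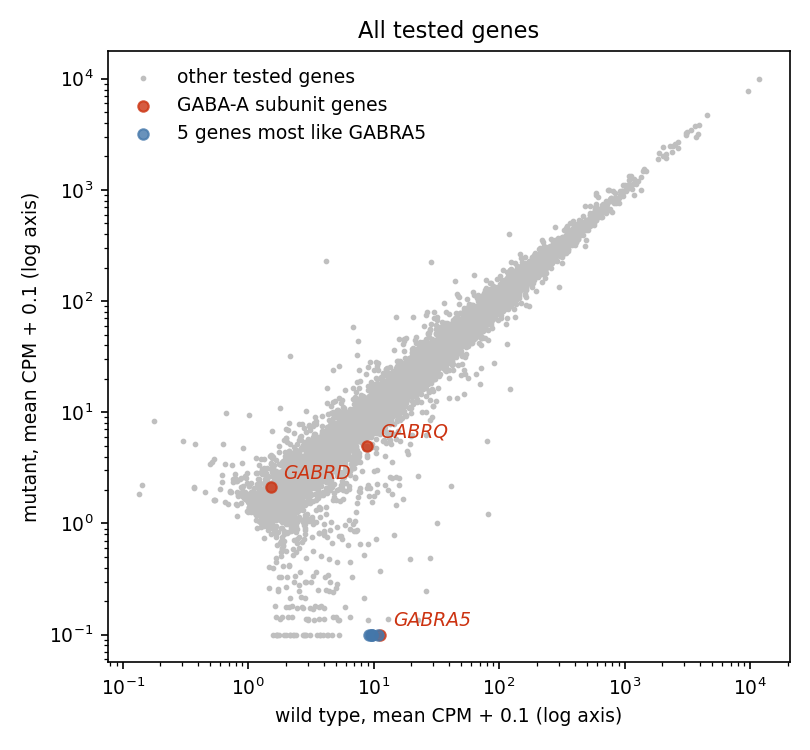
Mean TMM-scaled CPM in the mutant against the wild type for the 14835 tested genes, on log axes after adding 0.1 CPM. GABRA5 lies at 0 mutant counts beside the 5 genes most like it, while GABRQ and GABRD lie near the main band.

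GABRA5 is a neuronal gene, and markers of neural cells were looked at in the same fit. Of 20 neural genes present, 10 were tested, 1 rose, 5 fell and 4 were not called, and the median log2 difference was -0.52. Over all tested genes 11.9% rose and 9.26% fell. MAP2 and SOX1 fell by 2.52 and 2.28 on the log2 scale, NES, SYT1 and TUBB3 fell by 0.51, 0.86 and 1.00, and DCX rose by 2.58. The calls of TUBB3 and SYT1 were lost with DESeq2 (adjusted p = 0.0967 and 0.068), without wild-type or mutant replicate 3, and for SYT1 without mutant replicate 2. The summed level of the 20 neural genes was 1374 to 1652 CPM in the wild type and 1007 to 1375 CPM in the mutant, most of it SOX2. Without SOX2 it was 346 to 368 and 241 to 265 CPM, most of it NES alone (314.9 ± 13.9 and 220.3 ± 12.7 CPM). NEUROG1, NEUROD1 and ELAVL4 were at 0 in all libraries, and RBFOX3 had 4 counts in each group. The part of these genes in the loss of GABRA5 counts was not tested. Of 16 blood markers 7 were at 0, among them PTPRC, SPI1 and GATA1, and their sum was 71.6 to 82.2 CPM in the wild type against 103 to 113 CPM. TAL1, a transcription factor gene of early blood cells, rose by 1.08 and held much of that sum (31.9 ± 2.49 and 67.5 ± 3.57 CPM). RUNX1 fell by 0.62 (edgeR adjusted p = 0.009, and 0.0597 without wild-type replicate 1), and GATA2 was not called. The part of these genes was not tested either.

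Libraries held 7764009 to 9610028 gene counts, and TMM factors were 0.9954 to 1.0044. Over all 14835 tested genes 1768 rose and 1374 fell in the mutant.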

How the data were processed

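PolyA RNA of 3 wild-type and 3 mutant HAP1 libraries was made into stranded TruSeq libraries, per the labels. The authors deposited raw counts per gene without normalization, and the strand setting of the counting is not given in the sources used here. TopHat2 2.1.1, HTSeq, DESeq2 and build hg19 are named in the submitters' processing notes. A second table deposited by the authors holds their DESeq2 comparison. It gives a mean signal per gene over all libraries, a log2 fold change with its standard error, a Wald score and p-values, per the file headers. The signal, score and p-values of that table were not used.

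The 5 closing rows without a gene (22.4 to 24.3% of the count table total) were set aside. Symbols came from the authors' table or by Ensembl identifier (52293 of 57773 genes). GENCODE v29 (GRCh38) gave location and exon length for 52530. Counts were fitted in R 4.3.3 with edgeR 4.0.16 (filterByExpr, TMM, robust quasi-likelihood, genotype as the only term, two-sided F test, prior count 0.125), and p-values were adjusted by Benjamini-Hochberg over 14835 genes, with calls under 0.05. The SE was taken from the F statistic. The script was tested on simulated data. CPM are TMM-scaled, with the SD over 3 libraries. A floor of 3 counts and counting intervals cover counting error only. The floor bounds the mutant counts and takes the wild-type counts as exact. Alternatives were RLE scaling, no filter beyond 1 count, DESeq2 1.42.0, a replicate block, a prior count of 2 for GABRA5 and leaving out each library.

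Members and lists were chosen with earlier results of these data known. Some genes and a sequence are not reported here, and the lists and their counts leave those genes out. Named genes were GABRA5, GABRG3, every other subunit gene or 15q11-q13 list gene with a count, and up to 6 called genes of each other list. The 5 tested genes most like each member were named too. GPHN, ABAT, GAD1, the GABARAP genes, SLC12A2, SLC12A5, KCTD8, GLRB and GATA2 were named outside this rule after their values were seen. So were SOX2, NEUROG2, PAX6, SYP and genes at or near 0.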

Additional observations from a re-analysis of the deposited data

How the results depend on the processing

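The absence of GABRA5 counts holds in each mutant library, while its fitted log2 difference of -9.58 became -9.04 with DESeq2 and -5.61 with a prior count of 2. The cause of the move with DESeq2 was not tested. Its limit ran from 61.3 to 99.1-fold without single libraries. The GABRG3 ratio ran from 1.19 (taken against the floor, without the counting error of the wild type) to 7.42 without single libraries, all inside its counting interval. Replicate numbers are shared by the groups, and no pairing is stated. Deviations of same-numbered libraries correlated at 0.076, 0.09 and -0.116, and those of other pairs at -0.183 to 0.119. With 3 libraries per group these values cannot decide whether the libraries are paired. With the replicate block 1959 genes rose and 1615 fell, 2 trafficking genes rose, and no call of a named gene was lost. DESeq2 called 1287 and 1002. Without single libraries, trafficking genes that rose numbered 0 to 3 and those that fell 1 to 2. GABA-B and chloride genes that rose numbered 1 to 3 and those that fell 1 to 2. Other Cys-loop genes that fell numbered 0 to 1, neural markers that fell 3 to 6, and blood markers that fell 0 to 1. With DESeq2, 0 trafficking genes rose, 1 GABA-B or chloride gene fell and 3 neural markers fell, and 2 neural markers rose without the filter. Of 510 values of 51 named genes under 10 alternatives, 460 stayed on their side of the threshold, 49 calls were lost, 1 was gained (GAD1) and 0 reversed. GABRQ, UBE3A, HERC2, MTMR10, MKRN3, ALDH5A1 and KCTD12 were called in all 10. Depth limits the members' data: in each library 3 counts are worth 0.312 to 0.389 CPM, above the wild-type mean of GABRG3 (0.189 CPM).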
